A study of Rattus norvegicus with 4 samples.

Results

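The genes described here are 6 proteases that break down extracellular matrix and 1 protease inhibitor, measured in rat fracture callus, the new tissue that bridges the ends of a fractured bone. They were taken by Ensembl gene ID, and the IDs of Mmp2 (ENSRNOG00000016695), Mmp9 (ENSRNOG00000017539), Mmp3 (ENSRNOG00000032626), Mmp13 (ENSRNOG00000008478), Mmp14 (ENSRNOG00000010947), Ctsk (ENSRNOG00000021155) and Timp1 (ENSRNOG00000010208) were all present, as 7 of the 20174 gene probes of the array. None of the 7 was absent or null in the deposited value table, each had 1 spot per array, and all 7 were above the blank-spot limit on all 4 arrays. The array files list IDs only, and the gene names are those paired with the IDs in the selection rule. The reference gene table lists no Ensembl IDs, so the pairing was not checked against it. Callus came from male Sprague–Dawley rats, 12 weeks old, with a closed fracture of the right femoral shaft held by an intramedullary wire. The 4 groups were DM day 11, Ctr day 11, DM day 5 and Ctr day 5, with the day counted from the fracture. DM animals had received 1 intravenous dose of 40 mg/kg streptozotocin, a toxin of pancreatic beta cells, and had blood glucose over 300 mg/dl. Ctr animals had received sodium chloride and had normal glucose. Callus of 5 animals per group was pooled before RNA isolation and read on 1 array, so the spread between animals is unknown and no difference between arrays has a replicate check.

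Fracture callus is built first as a soft cartilage and fibrous matrix, and is then degraded and replaced by bone. Matrix metalloproteinases are zinc enzymes made as inactive precursors, and between them they cut fibrillar collagens, denatured collagen and proteoglycans. Cathepsin K, encoded by Ctsk, is a cysteine protease that osteoclasts release onto bone, where it cuts type I collagen in acid. Timp1 encodes a secreted inhibitor that binds the active site of most metalloproteinases and does not act on cathepsin K.

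Intensities are spot medians with the blank-spot level of the array removed and an offset of 50 added, quantile normalized. Folds therefore understate the change of dim genes. Of the 7 genes only Mmp3 had a net signal below the offset on any array, 32.0 on the Ctr day 5 array. Each array had 15846 to 16377 genes above the blank-spot limit. The number of arrays limits the precision, as do single spots: repeats of 1 positive control probe had a coefficient of variation of 8.01% to 11.9% within an array, and those of the other 17.0% to 28.9% (24 spots each). At 1 array position the second of these probes was dim on every array, and at 1 further position it was dim on the DM day 11 array. The lowest net signal of this probe on the DM day 11 array was 212.1, against a median of 11144. For a log2 difference between DM and Ctr, the spot-to-spot SD was 0.20 on day 11 and 0.18 on day 5 for the first probe, and 1.57 on day 11 and 0.74 on day 5 for the second. Without these positions, which left 22 spots, the second probe gave 0.16 on day 11 and 0.17 on day 5. Spots of the genes described here have no repeat that would show such a failure. Lists of cell type markers and of further protease genes could not be applied, because the IDs of those genes carry no symbols here. The identity of the tissue was therefore not checked against markers, and the part of muscle, marrow or immune cells in the results was not tested.

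The comparison of diabetic with control callus asks how callus of the streptozotocin model differs from control callus on each day. Mmp13, Mmp9 and Ctsk were at least 2-fold higher in DM than in Ctr callus on both days. Mmp3 was at least 2-fold lower in DM callus on day 11 and at least 2-fold higher on day 5. Mmp14, Mmp2 and Timp1 were within 2-fold on both days. On day 11 this made 3 of 7 genes at least 2-fold higher, against 2.16% of the 16732 genes compared, and 1 of 7 at least 2-fold lower, against 2.1%. On day 5 it made 4 of 7 higher, against 0.534% of 17030 genes, and 0 of 7 lower, against 0.975%. The 7 genes were brighter than the median gene in each comparison, and among genes brighter than the median gene the shares were 4.17% higher and 4.11% lower on day 11, and 1.07% higher and 1.93% lower on day 5. Because the genes were chosen with earlier results of these data known, the counts are descriptive and not a test of the set. The median log2 difference of the 7 genes was 0.78 on day 11 and 1.08 on day 5, where the median of all genes was 0.00 and 0.01. In pooled tissue RNA, more cells that express a gene and more RNA per cell cannot be told apart.

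**Figure D1:**
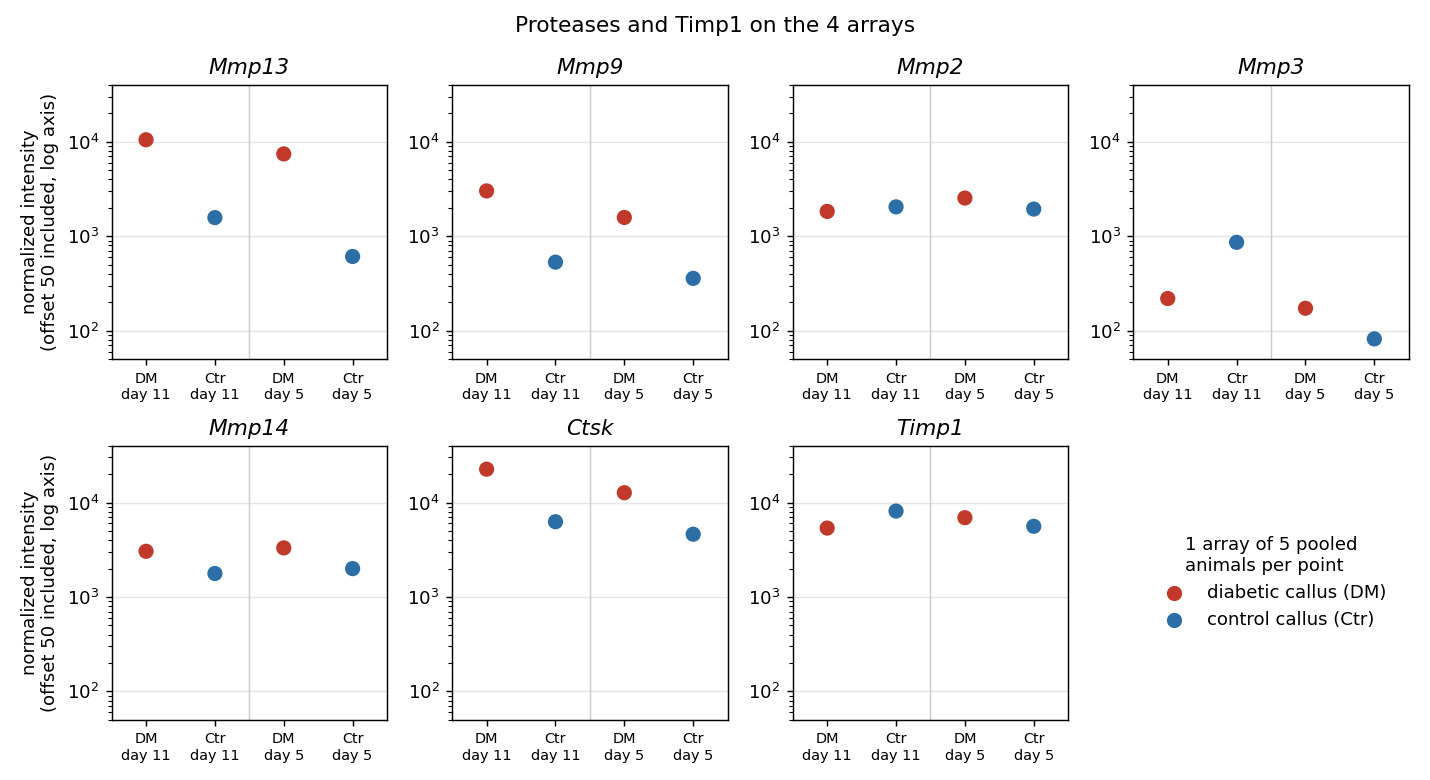
Normalized intensity (log axis, offset of 50 included) of the 7 genes on the 4 arrays, with diabetic callus (DM) in red and control callus (Ctr) in blue and 1 array of 5 pooled animals per point. For Mmp13, Mmp9 and Ctsk both DM points lie above both Ctr points, while Mmp3 is highest on the Ctr day 11 array at 860.9.

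Mmp13 encodes the main rodent collagenase, which cuts the fibrillar collagens of cartilage and bone and is made by hypertrophic chondrocytes and osteoblasts. Its intensity was 10503 in DM and 1573 in Ctr callus on day 11, and 7435 in DM and 609.7 in Ctr callus on day 5. Both DM values exceeded both Ctr values, and the DM value of day 5 was above the Ctr value of day 11. The gene was 6.68-fold higher in DM callus on day 11 (log2 difference 2.74, rank 46 of 16732 genes from the highest) and 12.2-fold higher on day 5 (log2 difference 3.61). On day 5 only 1 of 17030 genes had a higher difference. The authors' deposited table has no offset, and there Mmp13 had 6046.56 in DM and 829.02 in Ctr callus on day 11, and 5091.56 in DM and 329.94 in Ctr callus on day 5, differences of 7.29-fold on day 11 and 15.4-fold on day 5.

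Mmp9 encodes gelatinase B, which cuts denatured collagen and is made by osteoclasts, chondroclasts and neutrophils. Its intensity was 3017 in DM and 531.2 in Ctr callus on day 11, and 1579.8 in DM and 357.6 in Ctr callus on day 5. As for Mmp13, both DM arrays were above both Ctr arrays. The difference was 5.68-fold on day 11 (log2 2.51, rank 56 of 16732) and 4.42-fold on day 5 (log2 2.14, rank 9 of 17030). With the local background column of the files in place of the blank-spot level, the day 5 difference was 1.48 on the log2 scale.

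Ctsk had an intensity of 22555 in DM and 6260.1 in Ctr callus on day 11, and of 12700.3 in DM and 4616 in Ctr callus on day 5. Again both DM values lay above both Ctr values. Ctsk was 3.60-fold higher in DM callus on day 11 (log2 1.85, rank 102 of 16732) and 2.75-fold higher on day 5 (log2 1.46, rank 28 of 17030). The local background column gave a larger log2 difference of 2.45 on day 11. Mmp13, Mmp9 and Ctsk together make up 3 of the 59 genes that were at least 2-fold higher in DM callus on both days, among 16101 genes compared on both. The days are separate pools and arrays. The direction of these genes in DM callus was also the same in each of 9 other ways of computing the values, which reuse the same spots and are not replicates.

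**Figure D2:**
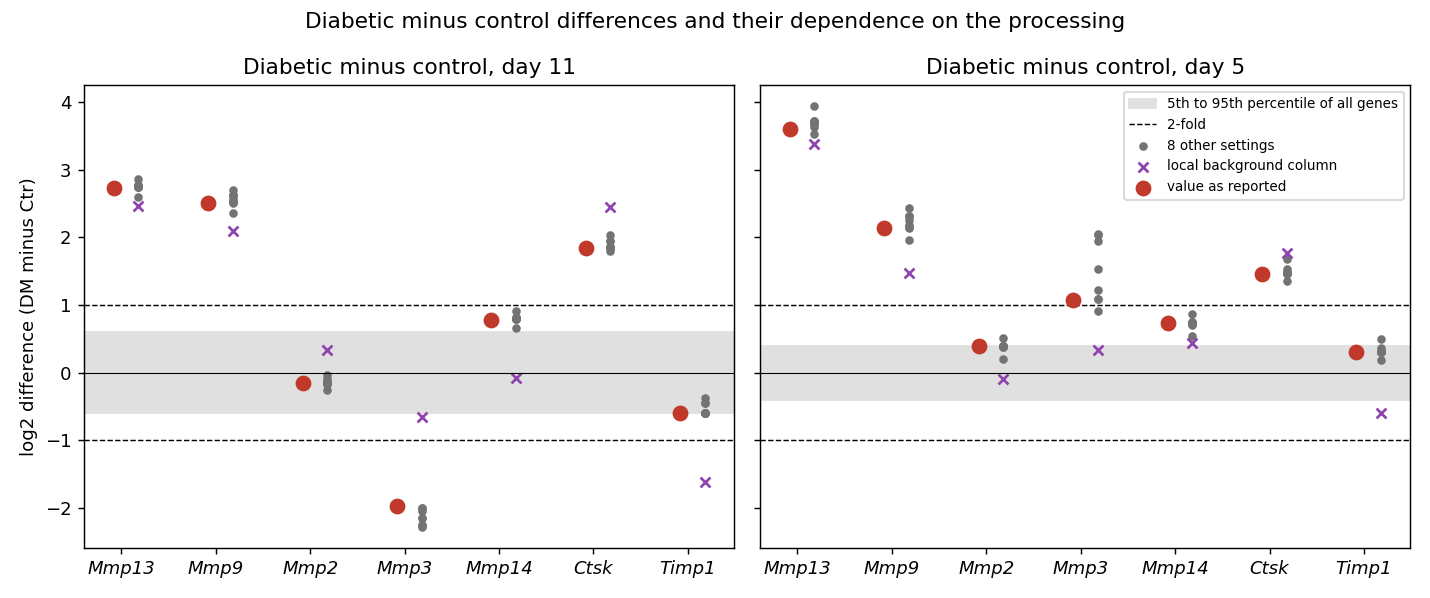
Log2 difference of diabetic minus control callus on day 11 and day 5 for each gene, as reported (large red point), in 8 other settings (grey) and with the local background column (purple cross). The grey band spans the 5th to 95th percentile of all genes and the dashed lines mark 2-fold. Mmp13, Mmp9 and Ctsk stay past 2-fold in every setting on both days, whereas the cross falls inside 2-fold for Mmp3 on both days.

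Mmp3 encodes a stromelysin, which cuts proteoglycans and activates the precursors of other metalloproteinases. Its intensity was 218.8 in DM and 860.9 in Ctr callus on day 11, and 172.5 in DM and 81.7 in Ctr callus on day 5. The Ctr day 11 array stood above the other 3, and the Ctr day 5 array was the lowest. Mmp3 was 3.94-fold lower in DM callus on day 11, with a log2 difference of -1.98 that ranked 86 of 16732 from the lowest. On day 5 it was 2.11-fold higher in DM callus, with a log2 difference of 1.08. The change of this difference from day 5 to day 11 was -3.05 on the log2 scale, and 5 of 16101 genes had a lower one. The Mmp3 spot came close to background on the Ctr day 5 array. It stood 4.88 times the blank-spot limit in DM and 21.5 times in Ctr callus on day 11, and 3.63 times in DM and 1.76 times in Ctr callus on day 5. In the authors' deposited table Mmp3 had 93.59 in DM and 446.86 in Ctr callus on day 11, and 74.11 in DM and 18.1 in Ctr callus on day 5, which is 4.77-fold lower in DM callus on day 11 and 4.09-fold higher on day 5. The local background column ended both calls, with log2 differences of -0.67 on day 11 and 0.34 on day 5. Leaving out the normalization between arrays ended the day 5 call, at 0.91.

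Mmp13 and Mmp3 lie near each other on the rat genome, with Mmp12 and Mmp1b as the protein-coding genes between them in the RefSeq annotation of GRCr8. Their promoter windows, 250 bases before to 50 bases after the annotated start, are shown because the diabetic difference of day 11 had opposite signs in these neighbours. The Ctsk window is shown because Ctsk had the same order of the 4 arrays as Mmp13. The sequences are from RefSeq (GRCr8), matched by symbol for Mmp13, Mmp3, Ctsk and Timp1. No entry was used for Mmp2, Mmp9 and Mmp14. Capitals mark every match, on either strand, to TGANTCA (the motif bound by AP-1 factors), ACCACA (the core bound by RUNX factors) and TATAAA (the TATA box).
Mmp13 (chr8:12782579-12782878, plus strand): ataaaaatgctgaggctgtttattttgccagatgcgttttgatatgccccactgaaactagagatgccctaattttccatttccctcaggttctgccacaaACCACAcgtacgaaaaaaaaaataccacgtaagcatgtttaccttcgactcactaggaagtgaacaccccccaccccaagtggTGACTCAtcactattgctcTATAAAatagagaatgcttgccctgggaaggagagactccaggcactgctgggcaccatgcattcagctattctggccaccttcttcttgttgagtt
Mmp3 (chr8:12925031-12925330, plus strand): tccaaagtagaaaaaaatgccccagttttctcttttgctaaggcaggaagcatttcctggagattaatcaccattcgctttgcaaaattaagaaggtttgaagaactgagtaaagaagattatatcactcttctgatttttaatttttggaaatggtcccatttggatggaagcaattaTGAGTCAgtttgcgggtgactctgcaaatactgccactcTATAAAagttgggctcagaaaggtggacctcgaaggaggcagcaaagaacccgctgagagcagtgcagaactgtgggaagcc
Ctsk (chr2:185747298-185747597, plus strand): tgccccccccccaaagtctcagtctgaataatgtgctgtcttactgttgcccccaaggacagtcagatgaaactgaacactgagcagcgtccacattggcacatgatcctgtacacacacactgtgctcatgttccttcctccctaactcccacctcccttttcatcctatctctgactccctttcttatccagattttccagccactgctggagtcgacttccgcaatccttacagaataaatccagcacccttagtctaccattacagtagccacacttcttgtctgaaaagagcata

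The Mmp13 window held 1 match to each motif, with TGACTCA starting 66 bases, ACCACA 149 bases and TATAAA 47 bases before the annotated start. The Mmp3 window held TGAGTCA starting 71 bases and TATAAA 32 bases before it. None of the 3 motifs was found in the Ctsk and Timp1 windows. Among 33469 promoter windows of 300 bases, 7.33% held TGANTCA, 17.3% held ACCACA and 14.2% held TATAAA on either strand. The motifs do not overlap in these windows. The matches describe the letters of the windows and were not set against any measure of binding.

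Mmp14 and Mmp2 encode proteins that act together, since the membrane-bound enzyme encoded by Mmp14 activates the Mmp2 precursor at the cell surface and also cuts collagen itself. Mmp14 had an intensity of 3045 in DM and 1771 in Ctr callus on day 11, and 3307 in DM and 1996 in Ctr callus on day 5. Both DM arrays were above both Ctr arrays, by 1.72-fold on day 11 (log2 0.78) and 1.66-fold on day 5 (log2 0.73), short of 2-fold. The local background column turned the day 11 difference to -0.09. Mmp2, or gelatinase A, had 1830.3 in DM and 2045 in Ctr callus on day 11, and 2534 in DM and 1937 in Ctr callus on day 5. Its 4 values spanned 1.38-fold, the narrowest span of the 7 genes. Its log2 differences of -0.16 on day 11 and 0.39 on day 5 turned to 0.34 and -0.09 with the local background column.

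Timp1 had an intensity of 5364 in DM and 8125 in Ctr callus on day 11, and 6906 in DM and 5603 in Ctr callus on day 5. The 4 values spanned 1.51-fold, with the DM and Ctr arrays interleaved. The log2 difference was -0.60 on day 11 and 0.30 on day 5. With the local background column it was -1.63 on day 11, past 2-fold, and -0.60 on day 5, with the direction turned. The log2 difference of each protease minus that of Timp1 does not depend on a scaling factor common to an array. On day 11 it was 3.34 for Mmp13, 3.11 for Mmp9, 2.45 for Ctsk, 1.38 for Mmp14 and 0.44 for Mmp2, and -1.38 for Mmp3. On day 5 it was 3.31 for Mmp13, 1.84 for Mmp9, 1.16 for Ctsk, 0.78 for Mmp3, 0.43 for Mmp14 and 0.09 for Mmp2. The difference exceeded that of Timp1 for 5 of 6 proteases on day 11, where 95% of all 16732 genes did so, and for 6 of 6 on day 5, where 8.17% of 17030 genes did. The day 11 count is thus no higher than the share of all genes, and on day 5 Mmp2 exceeded Timp1 by little. This sign was kept in all 9 other settings except for Mmp3 on day 11, where the local background column gave 0.96. Enzyme and inhibitor protein were not measured.

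**Figure D3:**
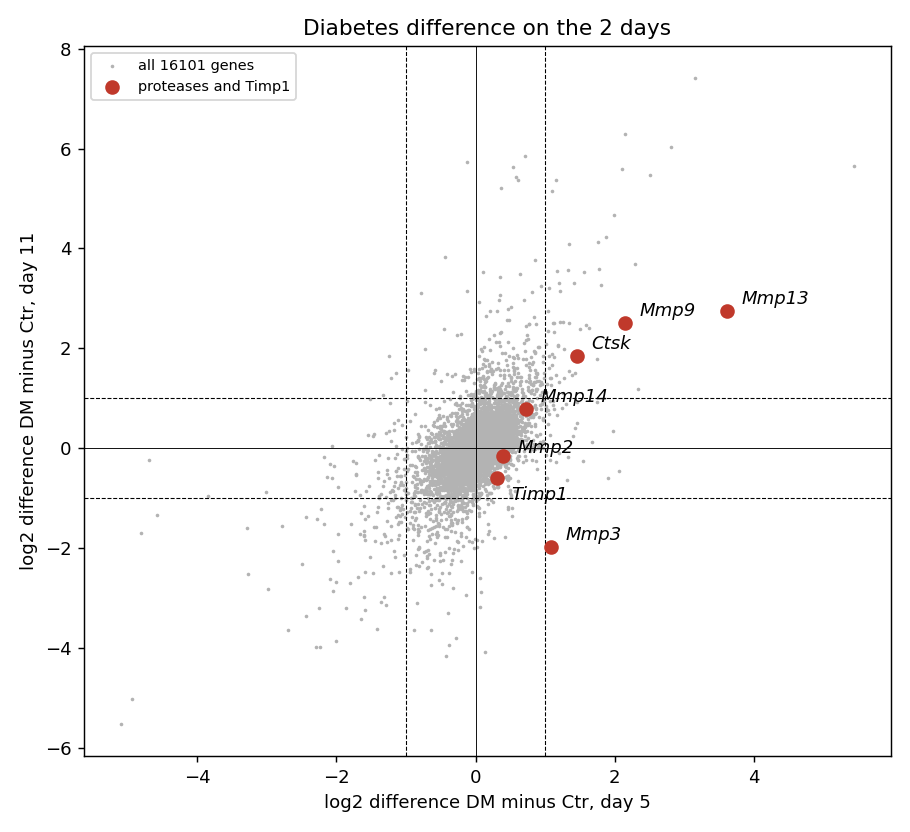
Log2 difference of diabetic minus control callus on day 5 (horizontal axis) and day 11 (vertical axis), with 16101 genes in grey, the 7 genes in red and dashed lines at 2-fold. Mmp13, Mmp9 and Ctsk lie past 2-fold on both axes, Mmp14 near the 2-fold corner, and Mmp3 at 1.08 and -1.98 in the lower right.

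Day 11 was then compared with day 5 within each condition. These comparisons share arrays with those above and are not independent of them. In DM callus 0 of 7 genes differed by 2-fold or more between day 11 and day 5, against 1.35% of 16803 genes. Mmp9 and Ctsk came nearest, at 1.91-fold (log2 0.93) and 1.78-fold (log2 0.83) higher on day 11. Mmp9 passed 2-fold with the local background column (log2 1.51) and without normalization between arrays (log2 1.03). Mmp13 was 1.41-fold higher on day 11 (log2 0.50), Mmp3 1.27-fold higher (log2 0.34), and Mmp2 1.38-fold lower (log2 -0.47). Timp1 and Mmp14 had log2 differences of -0.36 and -0.12, which the local background column turned to 0.06 and 0.17. In Ctr callus 2 of 7 genes were at least 2-fold higher on day 11, against 0.965% of 16893 genes, and 0 of 7 at least 2-fold lower, against 0.71%. These were Mmp3, at 10.5-fold (log2 3.40, rank 6 of 16893), and Mmp13, at 2.58-fold (log2 1.37, rank 73). The Mmp3 value starts from the dim Ctr day 5 spot, and was 24.7-fold in the authors' deposited table and 1.43 on the log2 scale with the local background column. Mmp9, Timp1 and Ctsk had log2 differences of 0.57, 0.54 and 0.44 in Ctr callus, Mmp2 of 0.08 and Mmp14 of -0.17. The local background column took Timp1 past 2-fold (log2 1.09) and turned Ctsk (log2 -0.39), Mmp2 (log2 -0.61) and Mmp14 (log2 0.69).

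Over all 4 arrays an additive limma fit estimated the diabetic minus control effect averaged over days, with 1 residual degree of freedom per gene. Its residual is the change of that effect between the days. The errors given are moderated by limma with a prior of 1.36 degrees of freedom estimated from all genes, so they are not that change alone. In limma the effect was 3.17 ± 0.29 (SE) for Mmp13, 2.32 ± 0.12 for Mmp9, 1.65 ± 0.13 for Ctsk and 0.76 ± 0.04 for Mmp14 on the log2 scale, each with a Benjamini-Hochberg adjusted p of 0.275 over 17661 genes. The direction was shared by both days for these 4 genes in the values used for the fit. With the local background column the Mmp14 differences were 0.43 on day 5 and -0.09 on day 11, so its direction was then not shared. The errors do not cover such a choice of processing. The effects of Mmp2 (0.11 ± 0.18), Timp1 (-0.15 ± 0.30) and Mmp3 (-0.45 ± 0.99) were smaller than their errors, with limma adjusted p-values of 0.840, 0.874 and 0.888. No gene of the array passed an adjusted p of 0.05 in limma, and 0.275 was the lowest value reached by any gene. At an unadjusted p under 0.05 there were 4 of 7 genes, namely Mmp13, Mmp9, Ctsk and Mmp14, against 15.1% of all genes. For day 11 minus day 5 averaged over conditions, 0 of 7 genes and 0 of 17661 passed in limma, with a lowest adjusted p of 0.524 among the 7. At an unadjusted p under 0.05 there were Mmp9 (0.75 ± 0.12) and Ctsk (0.63 ± 0.13), against 9.13% of all genes.

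Likeness of pattern was measured as the root mean square difference between log2 profiles over the 4 arrays, each centred on its own mean. The profiles share arrays and normalization, and the values are descriptive. The distance is not adjusted for the range of a profile, which was widest for Mmp13 among the 7 (log2 4.11). Mmp13 and Mmp9 were 0.53 apart. Of 17660 other genes none was nearer to Mmp13 than Mmp9, and 21 were nearer to Mmp9 than Mmp13. Ctsk and Mmp9 were 0.34 apart, with 2 genes nearer to Mmp9 than Ctsk and 29 nearer to Ctsk than Mmp9. Mmp13 and Ctsk were 0.84 apart, with 5 genes nearer to Mmp13 than Ctsk and 2922 nearer to Ctsk than Mmp13. Mmp13, Mmp9 and Ctsk ordered the arrays alike, with DM day 11 highest, then DM day 5, Ctr day 11 and Ctr day 5. Mmp14 was 0.35 from Mmp2, with 4209 genes nearer to Mmp14 than Mmp2 and 15789 nearer to Mmp2 than Mmp14. From Ctsk it was 0.60 apart, with 16422 genes nearer to Mmp14 than Ctsk and 281 nearer to Ctsk than Mmp14. Timp1 and Mmp2 were 0.21 apart, the closest pair, but 2205 of 17660 genes were nearer to Timp1 than Mmp2 was, and 11371 were nearer to Mmp2 than Timp1 was. Mmp3 was at least 1.05 from each of the other 6, with Timp1 as its nearest of these and Mmp13 as its farthest at 1.95. Still, 556 of 17660 genes were nearer to Mmp3 than Timp1 was, and 17525 were nearer to Timp1 than Mmp3 was. Nearest genes outside the 7 have no symbol here and are not named.

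**Figure D4:**
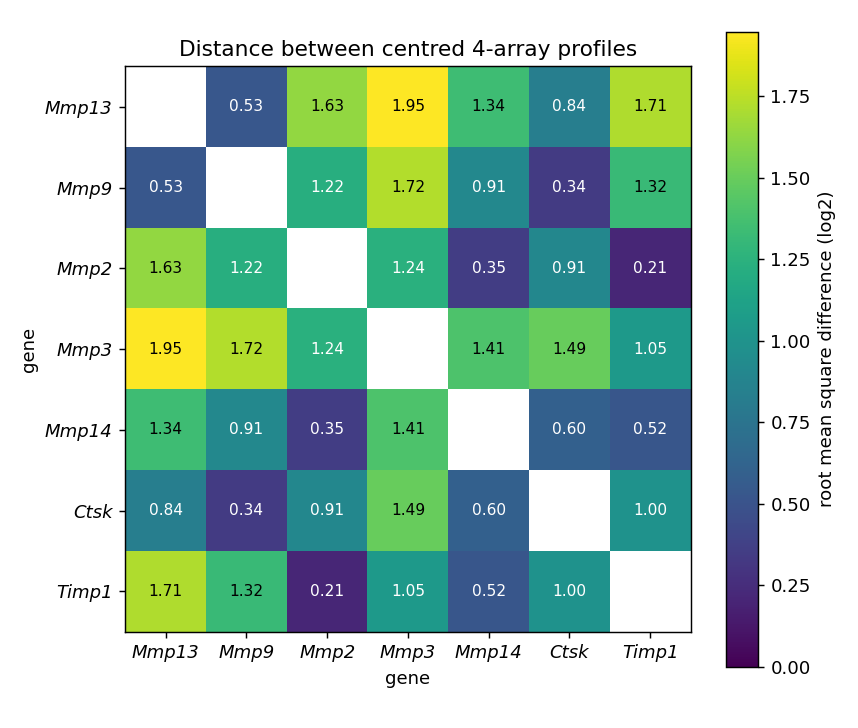
Root mean square difference (log2) between the centred 4-array profiles of each pair of genes, on a colour scale from 0. Mmp13, Mmp9 and Ctsk are 0.34 to 0.84 apart, and the row of Mmp3 holds values from 1.05 to 1.95.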

How the data were processed

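Callus RNA of 5 pooled animals per group was amplified, coupled to Cy5 and hybridised to 1 array per group, per the labels' protocols. The authors deposited array files with a foreground intensity (spot median, 635 nm) and a local background intensity per spot, per the file headers. How 3 scanner gains were combined is not given in the sources used here. The authors also deposited processed intensity values on a linear scale. These equalled the spot median minus the trimmed blank-spot mean, times 1 factor per array (0.511 to 0.700).

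Spot medians were background corrected in limma 3.58.1 (R 4.3.3; normexp, offset 50, blank-spot mean as background), 13 gene probes with a bad flag were left out, and arrays were quantile normalized and put on the log2 scale. The local background column was an alternative, since it followed the spot median itself (r on the log scale 0.981 to 0.990). A gene entered a comparison if it exceeded the blank-spot mean plus 2 SD (5% trimmed at each end) on at least 1 array. Differences of at least 2-fold were counted without a test. The additive fit used lmFit and eBayes with Benjamini-Hochberg adjustment over all genes, and was tested on simulated data. All 7 genes were described by rule. The genes, lists and tests were chosen with earlier results of these data known. Motifs were searched with Python 3.11.15 and plots made with matplotlib 3.10.9.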

Additional observations from a re-analysis of the deposited data

Results flagged for a closer look

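For 3 of the 7 genes the diabetic minus control difference had opposite signs on the 2 days, as it did for 33.6% of 16101 genes. With 1 array per group the difference between days was not tested. Mmp3 had log2 differences of -1.98 on day 11 and 1.08 on day 5, a change of -3.05. Timp1 had -0.60 on day 11 and 0.30 on day 5, a change of -0.90. Mmp2 had -0.16 on day 11 and 0.39 on day 5, a change of -0.55, against an SD of such changes over all genes of 0.40. The opposite signs of Mmp3 were kept in all 9 other settings of the values. Those of Timp1 and Mmp2 were not: with the local background column Timp1 was lower in diabetic callus on both days, and both signs of Mmp2 turned.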

How the results depend on the processing

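The values were recomputed with another background (local column, plain subtraction or none), offset (16 or none), normalization (75th percentile, cyclic loess or none), filter (none, or all 4 arrays) and with the authors' deposited table, 11 alternatives in all. The filter alternatives alter only which other genes are compared, and could not change the log2 differences of the 7 genes. Only the other 9 alternatives could do so. The counts of 2-fold differences below include the filter alternatives, and so overstate how many values were put to a test. Of the 10 differences past 2-fold, 107 of 110 alternative values stayed past 2-fold in the same direction and 3, all of Mmp3, did not. Of the 18 within 2-fold, 4 of 198 alternative values went past it. The number of genes at least 2-fold apart between the days in diabetic callus was 0, but 1 with the local background column and 1 without normalization, Mmp9 in both. Between diabetic and control callus it was 3 to 4 on day 5 and 4 on day 11 under every alternative, with Timp1 in place of Mmp3 on day 11 for the local background column. Between the days in control callus it was 2 to 3. Between diabetic and control callus the share of all genes that far apart ranged from 1.27% to 11.7% on day 5 and from 3.54% to 19.3% on day 11. Between the days it ranged from 1.13% to 11.3% in diabetic callus and from 1.4% to 11.2% in control callus. Each share was highest with plain subtraction, so the counts do not stand out equally at each setting. Mmp3 minus Timp1 on day 11 turned to 0.96 with the local background column, a comparison added after its values were seen. The cause was not tested. In limma 0 of 7 genes passed an adjusted p of 0.05 under any alternative, trend and robust options included; the lowest adjusted p among them was 0.162 to 0.678 for diabetes and 0.510 to 0.932 for day. No paired analysis was possible, since each group was 1 array of pooled animals and the labels link no animals between groups. The additive limma fit compares the conditions within each day. For that fit, leaving out an array left no residual degrees of freedom. Signal over background limits Mmp3, the only 1 of the 7 with a net signal below the offset.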
